A study of Homo sapiens with 6 samples.

Results

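The genes described here are 10 histone chaperones, proteins that carry histones and place them on DNA: CHAF1A, CHAF1B, ASF1A, ASF1B, HIRA, UBN1, CABIN1, NASP, DAXX and SUPT16H. They were taken by symbol from the 63129 genes listed in the deposited FPKM table, and where a symbol was listed more than once the row of highest mean FPKM was used. The other rows named HIRA and DAXX were listed at 0 in every library. FPKM counts the fragments of a gene relative to the length of its transcript and to the fragments mapped in the library, so levels of different genes can be compared. Both groups were ERRAS cells, IMR90 human lung fibroblasts of early passage that carry a retroviral, tamoxifen-inducible H-RasV12 fused to the oestrogen receptor (ER:RAS). All cells were grown in G418 at low oxygen and arrested in mitosis with DME (1 μM), which blocks the spindle motor Eg5, and cells that had rounded up and detached were washed off and collected. The 3 control mitotic libraries came from uninduced cells. The 3 Ras-induced mitotic libraries came from cells induced for 4 days, with 100 nM tamoxifen per the labels, whereas the methods state the concentration in ng/ml. Both groups carry the construct, and only the Ras-induced cells received the inducer, so any effect of tamoxifen itself and that of active Ras cannot be told apart.

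New DNA is packed into nucleosomes by a relay of chaperones. NASP keeps a reserve of soluble H3-H4. ASF1A and ASF1B are paralogs that bind an H3-H4 dimer and pass it on to CAF-1 or to the HIRA complex. CAF-1 (CHAF1A, CHAF1B and RBBP4) is tethered to the replication fork by PCNA and deposits the replicative H3 variants. The HIRA complex (HIRA, UBN1 and CABIN1) deposits the variant H3.3 independently of DNA replication. DAXX, with ATRX, deposits H3.3 at repeats, and SUPT16H with SSRP1 forms FACT, which handles H2A-H2B while polymerases pass. In fibroblasts that enter senescence, HIRA moves to PML bodies, and HIRA and ASF1A are known to take part in forming senescence-associated heterochromatin foci.

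The DNA before the RefSeq start of 4 of these genes is shown: CHAF1B and ASF1B, which were lower in Ras-induced cells, CHAF1A, the partner of CHAF1B in CAF-1, and HIRA, for comparison, as the scaffold of the other complex. Sequences are from RefSeq (GRCh38.p14 table) and were placed by exact match in GRCh37, the build of the files. Capitals mark matches, on either strand, to a CCAAT box (CCAAT), to a cell cycle homology region (TTTGAA), to an E2F core (TTNNCGC, each N being C or G) or to the longer E2F word with 1 more T (TTTNNCGC), and in CHAF1A the inverted CCAAT box overlaps an E2F core. The stretches lie at chr19:4402537-4402636 on the plus strand (CHAF1A), chr21:37757590-37757689 on the plus strand (CHAF1B), chr19:14247423-14247501 on the minus strand (ASF1B) and chr22:19419257-19419356 on the minus strand (HIRA), all directly upstream of the RefSeq start except that of ASF1B, which ends with its TTTGAA, the last 3 letters of which lie in the annotated first exon. The stretch of HIRA lies inside the span annotated for the gene, because another annotated transcript begins further upstream. That of ASF1A lies wholly in an exon of the opposite-strand gene MCM9 and is not shown.
CHAF1A: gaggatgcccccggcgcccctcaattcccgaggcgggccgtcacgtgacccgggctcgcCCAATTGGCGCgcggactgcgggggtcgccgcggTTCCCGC
CHAF1B: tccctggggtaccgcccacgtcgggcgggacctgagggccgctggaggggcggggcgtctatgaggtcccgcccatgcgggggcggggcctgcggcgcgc
ASF1B: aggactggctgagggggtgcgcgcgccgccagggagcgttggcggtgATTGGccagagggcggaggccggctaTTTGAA
HIRA: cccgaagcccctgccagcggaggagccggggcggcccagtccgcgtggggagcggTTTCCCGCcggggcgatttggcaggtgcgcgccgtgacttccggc

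Over the 250 bases before the start, which could be searched for 9 of the 10 genes, the E2F core was found in CHAF1A and HIRA, and among all 35116 RefSeq promoters 10.9% held it. The longer E2F word was found in HIRA alone of these genes and in 2.79% of all promoters. TTTGAA was found in ASF1B and in 1 of the entries of UBN1, and in 13.3% of all promoters. CCAAT was found in CHAF1A, ASF1B, UBN1, CABIN1 and NASP, and in 32% of all promoters. CHAF1B, ASF1A and SUPT16H held none of these words in that window. The words were chosen with the expression values known, and a match is a description of the letters only.

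HRAS, which counts the endogenous gene together with the construct, averaged 1163.7 ± 20.3 FPKM in control and 1586.3 ± 226.5 FPKM in Ras-induced mitotic cells (SD, n = 3 each; log2 fold change 0.44, adjusted p = 0.0431 from limma). Of the 13993 genes that averaged at least 1 FPKM over the 6 libraries, tested with limma on log2(FPKM + 1), 2336 had an adjusted p at or under 0.05 and are called altered (16.7%), 11.0% being higher and 5.67% lower after induction. The median over the tested genes was 0.10 (log2 fold change) as deposited and 0.01 once quantile-normalized, so small positive changes depend on the scaling. As deposited 1543 genes were altered and higher and 793 lower, but lower calls were the more numerous after quantile normalization (1044 higher, 1109 lower) and after upper-quartile scaling (921 higher, 1101 lower). All 8 fibroblast markers checked were detected, with summed levels of 5446 to 6333 FPKM in control and 4019 to 5370 FPKM in Ras-induced libraries, and 2 of them were altered, both lower (COL1A2 and THY1; median log2 fold change of the 8 markers -0.61). COL1A1 and COL3A1 were also lower in each Ras-induced library than in any control, with ratios of the means of 0.41 and 0.45 (adjusted p = 0.0501 and 0.0553 from limma). VIM, FN1, PDGFRB and S100A4 were not altered and their groups overlapped, with log2 fold changes of 0.06, 0.02, -0.04 and 0.19. The median of the 8 markers therefore does not describe the whole set. The 4 endothelial markers and, separately, the 5 haematopoietic markers summed to under 0.5 FPKM in every library, with PECAM1 and CD3E listed at 0, and the 5 epithelial markers to 19.1 to 35.1 FPKM in control and 21.3 to 23.6 FPKM in Ras-induced libraries, most of it KRT5 and KRT14. The 10 mitotic markers summed to 1828 to 1872 FPKM in control and 1488 to 1641 FPKM in Ras-induced libraries, and 5 of them were altered, all lower. The study scored the collected cells by microscopy and reports that the great majority were mitotic in both groups. In bulk RNA, fewer cells of a type and less RNA per cell cannot be told apart.

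All 10 chaperone genes passed the filter on low values. Of these, 3 were altered in Ras-induced mitotic cells: ASF1A was higher, and CHAF1B and ASF1B were lower. The same 3 were the members whose control and Ras-induced values did not overlap, as in 39.9% of all tested genes (27.1% with Ras-induced values higher and 12.8% lower). A count of 3 in 10 stands beside the 16.7% of all tested genes that were altered, and with so few genes it says little about the group. The median log2 fold change of the 10 genes was -0.06, against 0.10 for all tested genes, and 9 of the 10 (all but ASF1A) lay below that all-gene median, but only 6 of the 10 did with no filter on low values, when the all-gene median was 0.02.

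**Figure D1:**
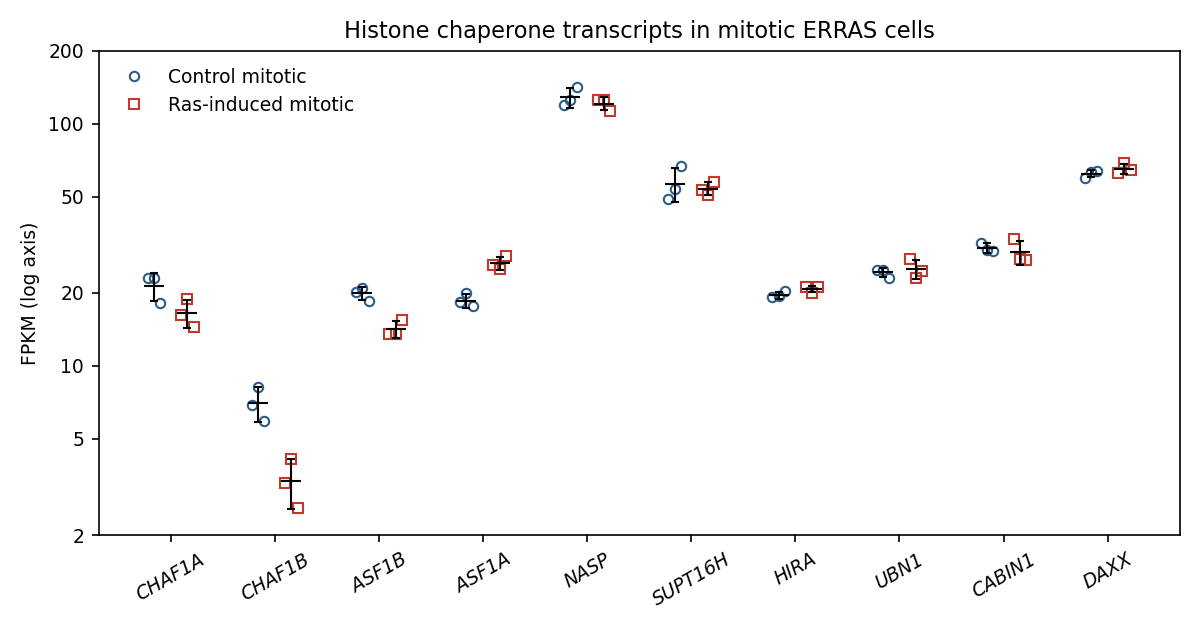
FPKM (log axis) of the 10 histone chaperone genes in each of 3 control mitotic libraries (blue circles) and 3 Ras-induced mitotic libraries (red squares), with black bars for the mean and SD. CHAF1B and ASF1B were lower in all Ras-induced libraries (2.59 to 4.14 and 13.5 to 15.5 FPKM) than in any control, ASF1A was higher (25.2 to 28.5 FPKM), and the groups overlapped for the other 7 genes.

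The genes differed widely in level. In control mitotic cells NASP was highest at 128.3 FPKM, followed by DAXX (62.2) and SUPT16H (56.5), whose values overlapped, and then by CABIN1 (30.7) and UBN1 (24.3). CHAF1A (21.4), ASF1B (19.9), HIRA (19.6) and ASF1A (18.6) followed, and each overlapped its neighbour in that order. CHAF1B was lowest at 7.01 FPKM, below every value of the other 9. In Ras-induced cells the order was the same from NASP to CABIN1, but ASF1A moved from place 9 to place 5, at 26.6 FPKM, with values that overlapped those of CABIN1 and UBN1. HIRA (20.8) then lay above CHAF1A (16.5) without overlap, and ASF1B (14.2) and CHAF1B (3.34) came last. Within a group the SD was between 3.11% of the mean (HIRA, Ras-induced) and 23.3% (CHAF1B, Ras-induced), with a median of 6.37%.

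Of the 3 genes of CAF-1, CHAF1B and RBBP4 fell in Ras-induced mitotic cells and CHAF1A did not pass the test. CHAF1B (ENSG00000159259, chromosome 21 of GRCh37 from 37757690 to 37791313), the p60 subunit that binds ASF1, measured 6.92, 8.20 and 5.92 FPKM in the control libraries and 3.29, 4.14 and 2.59 FPKM in the Ras-induced libraries. Every Ras-induced value was below every control value, and the means were 7.01 ± 1.15 and 3.34 ± 0.777 FPKM (SD, n = 3), a ratio of 0.48. The log2 fold change was -0.89 (standard error 0.18, 95% confidence interval -1.31 to -0.47, adjusted p = 0.0204 from limma). Because 1 is added to each value before the logarithm, the fold change of so low a gene is understated, and with 0.1 added it was -1.06. With limma, the call was lost without the first or second control library (adjusted p = 0.0785 and 0.0851), without the first or the third Ras-induced library (0.0754 and 0.0734), and when genes below a mean of 1 FPKM were also tested (0.0588). In a later annotation, CHAF1B shares 89 of its 5104 exonic bases with MORC3 on the same strand. MORC3 averaged 17.9 FPKM in control and 18.8 FPKM in Ras-induced cells, and the part of its reads in the CHAF1B values was not tested.

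CHAF1A (ENSG00000167670, chromosome 19 from 4402637 to 4445015), the p150 subunit that binds PCNA, measured 23.0, 23.0 and 18.1 FPKM in control and 16.2, 18.9 and 14.5 FPKM in Ras-induced libraries. The groups overlapped, since the second Ras-induced library lay above the third control library. The means were 21.4 ± 2.79 and 16.5 ± 2.23 FPKM (SD, n = 3). Its log2 fold change was -0.35 (standard error 0.14, 95% confidence interval -0.68 to -0.03), and the adjusted p was 0.126 from limma. RBBP4, the histone-binding subunit that CAF-1 shares with other chromatin complexes, measured 50.2, 51.3 and 51.3 FPKM in control and 35.8, 26.2 and 28.6 FPKM in Ras-induced libraries, a ratio of the means of 0.59 (log2 fold change -0.75, standard error 0.12, adjusted p = 0.011 from limma). PCNA, the sliding clamp that recruits CAF-1, fell from 67.8 ± 6.38 to 46.3 ± 2.19 FPKM (SD, n = 3; log2 fold change -0.54, standard error 0.09, adjusted p = 0.013 from limma). All 3 Ras-induced values of PCNA and of RBBP4 were below their controls.

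The ASF1 paralogs moved in opposite directions. ASF1A (ENSG00000111875, chromosome 6 from 119215316 to 119230336), the paralog linked to HIRA and to senescence foci, measured 18.3, 19.9 and 17.6 FPKM in control and 26.1, 25.2 and 28.5 FPKM in Ras-induced libraries. The lowest Ras-induced value exceeded the highest control value, and the log2 fold change was 0.49 (standard error 0.09, 95% confidence interval 0.28 to 0.70, adjusted p = 0.0149 from limma). It was 0.39 after quantile normalization and after upper-quartile scaling, and ASF1A remained altered in both (adjusted p = 0.0267 and 0.0305 from limma). Without the first control, the first Ras-induced or the third Ras-induced library the adjusted p from limma was 0.0576, 0.0522 and 0.0614. Exons of ASF1A share 205 of their 2589 bases with MCM9 on the other strand, and MCM9 measured 3.02, 3.16 and 3.12 FPKM in control and 4.02, 1.61 and 5.27 FPKM in Ras-induced libraries. The kit does not mark strand, and the part of MCM9 reads in the ASF1A values was not tested.

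ASF1B (ENSG00000105011, chromosome 19 from 14230324 to 14247425), the paralog associated with proliferation, measured 20.2, 20.9 and 18.6 FPKM in control and 13.5, 13.5 and 15.5 FPKM in Ras-induced libraries. Again no Ras-induced value reached the controls. The log2 fold change was -0.46 (standard error 0.09, 95% confidence interval -0.69 to -0.24, adjusted p = 0.0217 from limma), and the ratio of the means was 0.71. The adjusted p from limma was 0.0791 and 0.0882 without the first or second control library, and 0.0745 and 0.0629 without the first or second Ras-induced library.

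Within a library, the ratio of ASF1B to ASF1A was 1.11, 1.05 and 1.06 in the controls and 0.518, 0.535 and 0.545 after Ras induction. The paralogs were thus near parity in control mitotic cells, and the ratio was lower in each Ras-induced library, by 1.01 on the log2 scale, against an SD of 0.04 in both groups (exact permutation test, two-sided, p = 0.1, the smallest that 3 libraries against 3 allow, and 0.175 adjusted over 7 ratios). A ratio within a library does not depend on the scaling between libraries. Among the regulators of ASF1, the kinases TLK1 and TLK2, which phosphorylate it, measured 15.4 and 30.7 FPKM in control and 14.7 and 32.5 FPKM in Ras-induced cells (adjusted p = 0.734 and 0.541 from limma). CDAN1, which encodes the cytoplasmic ASF1-binding protein codanin-1, measured 10.7 and 9.10 FPKM (adjusted p = 0.374 from limma).

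**Figure D2:**
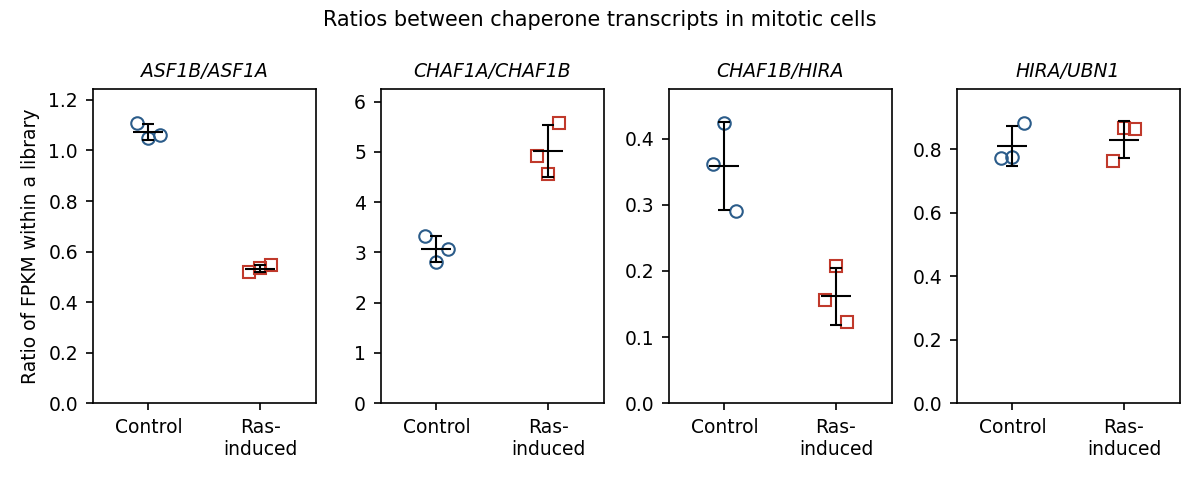
Ratio of FPKM between 2 genes within each library, for control (blue circles) and Ras-induced (red squares) mitotic cells, with black bars for the mean and SD of 3 libraries. The ASF1B to ASF1A ratio was 1.05 to 1.11 in control and 0.518 to 0.545 in Ras-induced libraries, CHAF1A to CHAF1B was higher and CHAF1B to HIRA lower after induction without overlap, and HIRA to UBN1 overlapped.

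NASP (ENSG00000132780, chromosome 1 from 46049518 to 46084576), the reserve chaperone of H3-H4, measured 118.9, 124.7 and 141.4 FPKM in control and 124.9, 125.6 and 112.8 FPKM in Ras-induced libraries. The groups overlapped, and the log2 fold change of -0.08 had a 95% confidence interval of -0.30 to 0.14 (adjusted p = 0.575 from limma). Its level was above that of 93.9% of tested genes. HAT1, which acetylates new histone H4, measured 61.4 ± 1.25 and 57.7 ± 5.45 FPKM (SD, n = 3; adjusted p = 0.498 from limma), and its partner RBBP7 measured 109.6 ± 5.36 and 92.1 ± 4.63 FPKM (SD, n = 3; adjusted p = 0.0694 from limma). IPO4, the importin that brings H3-H4 with ASF1 into the nucleus, rose from 18.7, 22.2 and 24.9 FPKM in control to 28.9, 37.3 and 33.6 FPKM in Ras-induced libraries (log2 fold change 0.58, standard error 0.14, adjusted p = 0.0348 from limma). IPO4 and ASF1A were the only higher genes called among the 10 members and the 11 partners, a share near the 11.0% of all tested genes.

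No gene of the HIRA complex was altered in limma, and none of its 3 genes had an unadjusted p under 0.05. HIRA (ENSG00000100084, chromosome 22 from 19318221 to 19434973), its scaffold, measured 19.2, 19.4 and 20.4 FPKM in control and 21.1, 20.0 and 21.2 FPKM in Ras-induced libraries. The second Ras-induced value lay within the control range, and the log2 fold change was 0.08 (95% confidence interval -0.10 to 0.26, adjusted p = 0.505 from limma). Relative to the median of all tested genes it was -0.02. A later annotation assigns 2857 of the 4299 exonic bases of HIRA also to C22orf39, a neighbour on the same strand, so fragments could be divided between them. C22orf39 was listed at 8.44 ± 0.431 FPKM in control and 7.39 ± 0.469 FPKM in Ras-induced cells (SD, n = 3; adjusted p = 0.26 from limma).

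UBN1 (ENSG00000118900, chromosome 16 from 4896666 to 4932402), the subunit that recognises H3.3, measured 24.8, 24.9 and 23.1 FPKM in control and 27.6, 23.1 and 24.6 FPKM in Ras-induced libraries. CABIN1 (ENSG00000099991, chromosome 22 from 24407642 to 24574596), the accessory subunit, measured 32.3, 30.1 and 29.8 FPKM in control and 33.3, 27.5 and 27.3 FPKM in Ras-induced libraries. In both genes the first Ras-induced library was above all controls and at least 1 of the other two lay inside or under the control range. Their log2 fold changes were 0.04 (95% confidence interval -0.18 to 0.26) and -0.07 (-0.31 to 0.17), with adjusted p = 0.766 and 0.672 from limma. UBN2, the paralog of UBN1, measured 0.618, 0.684 and 0.686 FPKM in control and 1.70, 1.24 and 1.27 FPKM in Ras-induced libraries. It passed the filter on low values only through its Ras-induced values, so nothing is read from its test or from its ratio to UBN1, one of the 7 ratios over which p was adjusted.

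DAXX (ENSG00000204209, chromosome 6 from 33286335 to 33290793) measured 59.9, 63.1 and 63.6 FPKM in control and 62.6, 68.5 and 64.6 FPKM in Ras-induced libraries, with overlapping groups (log2 fold change 0.07, 95% confidence interval -0.11 to 0.24, adjusted p = 0.552 from limma). Its partner ATRX, a chromatin remodeller, measured 16.1 ± 3.51 and 14.3 ± 1.45 FPKM (SD, n = 3; adjusted p = 0.565 from limma). A later annotation assigns 441 of the 3084 exonic bases of DAXX also to another gene on the same strand. SUPT16H (ENSG00000092201, chromosome 14 from 21819635 to 21852178), the large subunit of FACT, measured 48.9, 53.9 and 66.8 FPKM in control and 53.3, 50.9 and 57.4 FPKM in Ras-induced libraries. The third control library was the highest of the 6, and without it the log2 fold change turned from -0.06 to 0.07 (adjusted p = 0.775 and 0.616 from limma). SSRP1, the other FACT subunit, measured 129.5 ± 0.462 and 136.5 ± 5.59 FPKM (SD, n = 3; adjusted p = 0.464 from limma).

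**Figure D3:**
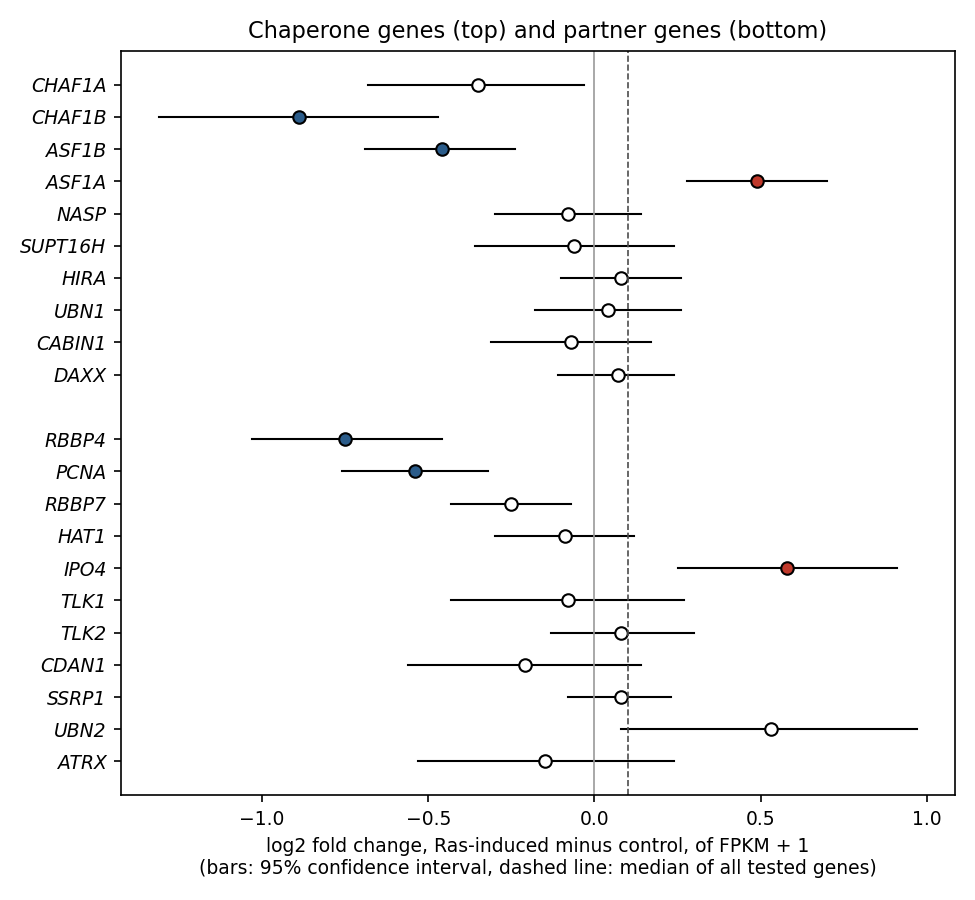
log2 fold change of FPKM + 1, Ras-induced minus control mitotic cells, for the 10 chaperone genes (top) and 11 partner genes (bottom), with 95% confidence intervals from limma; filled points were altered (red higher, blue lower) and the dashed line is the median of all tested genes, 0.10. CHAF1B, ASF1B, RBBP4 and PCNA lie below 0 and ASF1A and IPO4 above it, the intervals of CHAF1A and RBBP7 also leave out 0 although they were not altered, that of UBN2 is drawn but not read, and the intervals of HIRA, UBN1, CABIN1 and DAXX all span 0.

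The other ratios within a library gave the following. CHAF1A to CHAF1B was 3.32, 2.8 and 3.07 in control and 4.92, 4.56 and 5.58 in Ras-induced libraries, so it was higher in every Ras-induced library than in any control. CHAF1B to HIRA was 0.361, 0.424 and 0.29 in control and 0.156, 0.207 and 0.122 in Ras-induced libraries. Neither ratio overlapped between the groups (exact permutation test, two-sided, p = 0.1 each, the smallest possible, and 0.175 adjusted over 7 ratios). HIRA to UBN1 was 0.773 to 0.884 in control and 0.763 to 0.866 in Ras-induced libraries (exact permutation p = 1). SUPT16H to SSRP1 was 0.379 to 0.516 and 0.358 to 0.421 (exact permutation p = 0.5), and DAXX to ATRX was 3.2 to 4.9 and 3.92 to 5.18 (exact permutation p = 0.4).

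**Figure D4:**
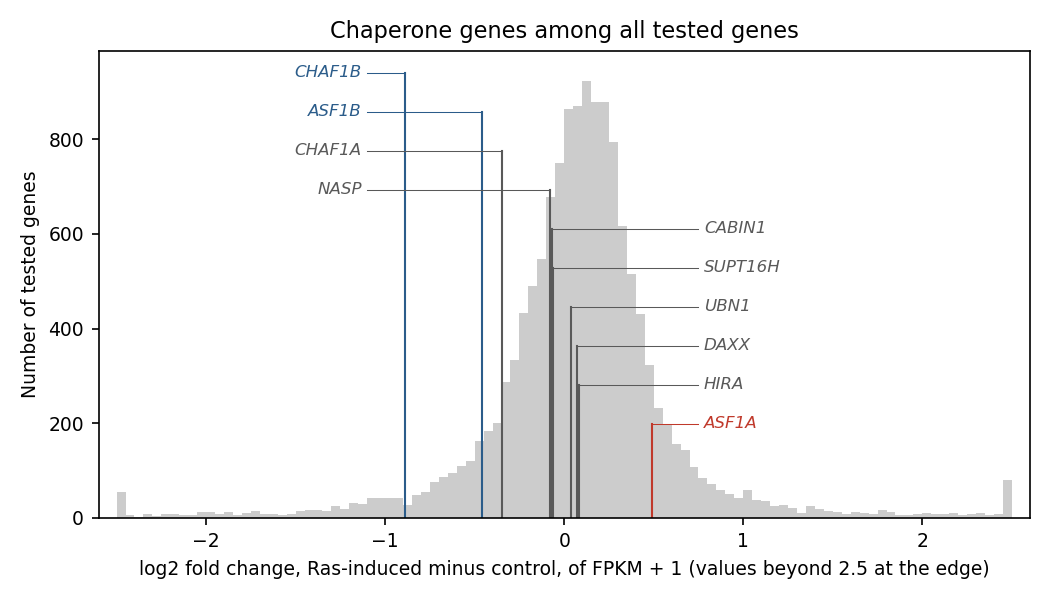
Histogram of the log2 fold change (FPKM + 1, Ras-induced minus control) of the 13993 tested genes, with vertical lines for the 10 chaperone genes, coloured where altered (blue lower, red higher); line heights only separate the labels. CHAF1B (-0.89) lay above only 3.9% of tested genes and ASF1B (-0.46) above 9.2%, ASF1A (0.49) lay above 87.8%, and 6 genes lay between -0.08 and 0.08.

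Beyond the direct partners, 6 of 23 other histone chaperones were altered (26.1%, against 16.7% of all tested genes), 4 lower and 2 higher, with a median log2 fold change of 0.03. ANP32E, which removes H2A.Z, fell from 131.9 ± 9.57 to 90.7 ± 3.81 FPKM (SD, n = 3) and its relative ANP32B from 160.8 ± 7.40 to 103.3 ± 13.7 FPKM (SD, n = 3), with adjusted p = 0.00966 and 0.0128 from limma. MCM2, a helicase subunit that also carries parental H3-H4, had a log2 fold change of -0.84 (adjusted p = 0.0107 from limma). The risers were the nucleolar genes NPM3 (log2 fold change 0.54, adjusted p = 0.0358) and GRWD1 (0.47, adjusted p = 0.0119 from limma). The most abundant of them, NPM1, measured 847.4 ± 47.8 and 975.2 ± 130.0 FPKM (SD, n = 3; adjusted p = 0.28 from limma). Of the 5 genes that deposit or encode CENP-A, none was altered at an adjusted p at or under 0.05 from limma, and the unadjusted p was under 0.05 for 2 of them, CENPA (0.0103) and OIP5 (0.0317). The chaperone HJURP measured 98.9 ± 5.25 and 94.7 ± 1.48 FPKM (SD, n = 3; adjusted p = 0.586 from limma).

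Among 10 components of senescence foci, 3 were altered, beside 16.7% of all tested genes, a count too small to set this list apart. HMGA1, an architectural protein of these foci, rose from 546.2, 543.8 and 545.7 FPKM in control to 902.7, 879.8 and 1032.5 FPKM in Ras-induced libraries (log2 fold change 0.78, standard error 0.08, adjusted p = 0.00378 from limma). CBX1, which encodes heterochromatin protein HP1β, and RB1, the retinoblastoma protein, fell, with log2 fold changes of -0.35 and -0.50 (adjusted p = 0.032 and 0.0201 from limma). HMGA2 and CBX5 were not altered (adjusted p = 0.062 and 0.108 from limma), although their unadjusted p was 0.0121 and 0.0295. Their log2 fold changes were 0.54 and -0.33. The most abundant of those not altered, CBX3, for heterochromatin protein HP1γ, and H2AFY, for the variant macroH2A, measured 166.5 ± 7.82 and 154.4 ± 2.84 FPKM and 111.3 ± 15.1 and 123.4 ± 14.2 FPKM (SD, n = 3; adjusted p = 0.325 and 0.458 from limma). The genes for H3.3, the cargo of HIRA and DAXX, were not altered in limma, although the unadjusted p of H3F3B was 0.0265. H3F3A measured 80.2 ± 11.9 and 86.1 ± 5.20 FPKM and H3F3B 657.0 ± 48.5 and 783.9 ± 50.2 FPKM (SD, n = 3; adjusted p = 0.563 and 0.1 from limma).

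The falls of CHAF1B, ASF1B, RBBP4 and PCNA stood beside those of other replication genes. Of 13 tested replication genes, PCNA and MCM2 among them, 8 were altered, all lower (61.5%, against 5.67% lower among all tested genes), with a median log2 fold change of -0.84. Among the altered genes the largest falls were those of TYMS (thymidylate synthase), at -1.67, MCM3, at -1.30, MCM6, at -1.26, CDT1, at -1.24, and MCM5, at -0.95 (adjusted p = 0.00279, 0.00287, 0.00384, 0.0094 and 0.00767 from limma). RRM2, the most abundant, measured 277.8 ± 8.16 and 225.1 ± 26.5 FPKM (SD, n = 3; adjusted p = 0.0759 from limma). The summed level of the list was 729.0 to 779.9 FPKM in control and 442.6 to 560.2 FPKM in Ras-induced libraries. The part of this shift, and of the lower mitotic marker levels, in the chaperone results was not tested.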

How the data were processed

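Poly(A) RNA from 6 cultures (3 control mitotic, 3 Ras-induced mitotic) was sequenced by the authors as paired-end reads, trimmed with Trim Galore 0.3.0 per the labels, and aligned to hg19 with Tophat2 and the splice junctions of Ensembl build 73. FPKM values per gene and library were made by the authors with Cufflinks and deposited. Any scaling between libraries is not given in the sources used here. The deposited table gives no read counts, so the depth behind a value is not known from it and no counting interval is given. Alignment statistics of the libraries were not used here. Columns name a group and a number but no sample, so each column was taken as 1 replicate of the group it names. The replicates are described as independent repeats in the study's methods. A total of 18 unnamed columns, 120 genes with more than 6 values (none of them a member) and 1 repeated header line were left out. The deposited Cuffdiff table (group values, fold changes, p-values and q-values) was not used.

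The test was limma 3.58.1, run in R 4.3.3 on log2(FPKM + 1) of the 13993 genes (of 63009 read) that averaged at least 1 FPKM (mean-variance trend, two-sided, Benjamini-Hochberg over all tested genes, adjusted p at or under 0.05 called altered). Every fold change carries that pseudocount of 1. Ratios within a library were compared by exact permutation over the 6 libraries, with no pseudocount. The procedure was tested on simulated data. The kit does not mark strand, so reads from overlapping genes on opposite strands cannot be told apart. Coordinates are from GENCODE 44 lifted to GRCh37, the build named hg19, and promoter sequences from RefSeq. Tables were made with Python 3.11.15 and its libraries numpy 2.4.6, pandas 2.3.3 and scipy 1.17.1, and plots with matplotlib 3.10.9.

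The members and lists were chosen with earlier results of these data known. Named were all members, the partners, and from each other list, cell type and mitotic markers apart, the altered genes up to the 5 largest changes and the most abundant unaltered ones. Some unaltered genes with an unadjusted p under 0.05 and some of the markers were named as well. Alternatives were a pseudocount of 0.1, no filter, a mean of at least 5 FPKM, quantile and upper-quartile scaling, no trend, a replicate block, rows summed by symbol, and each library left out.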

Additional observations from a re-analysis of the deposited data

How the results depend on the processing

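The number of altered genes among all tested was 2336, and 1518 with no filter on low values. Of these 1543 were higher and 793 lower, against 960 and 558 with no filter, 921 and 1101 after upper-quartile scaling and 1044 and 1109 after quantile normalization, so the excess of higher calls turned around under both scalings. Leaving out each library in turn gave 860 to 1872 altered genes, 519 to 1162 of them higher and 335 to 710 lower, with 0 to 3 altered members and 7 to 19 altered genes of the partner, chaperone, CENP-A, foci, H3.3 and replication lists together, where 18 were altered with all 6 libraries. The lowest counts of members, 0, came without the first control or the first Ras-induced library. Fewer libraries leave fewer residual degrees of freedom. With no filter CHAF1B had a log2 fold change of -0.89 (adjusted p = 0.0588 from limma, with 29362 genes tested), and 2 members were altered. Left out in turn, the libraries gave -1.02 to -0.76 for CHAF1B, 0.45 to 0.54 for ASF1A and -0.53 to -0.43 for ASF1B, with adjusted p from 0.0328 to 0.0851, 0.0352 to 0.0614 and 0.0351 to 0.0882. CHAF1A stayed above the threshold in all alternatives, with adjusted p from 0.0561 to 0.315. After quantile normalization HIRA, UBN1 and DAXX had log2 fold changes of -0.02, -0.06 and -0.03, and after upper-quartile scaling -0.03, -0.06 and -0.04, so no direction is given for them. UBN1 ranged from -0.02 to 0.10 and SUPT16H from -0.15 to 0.07 when libraries were left out. No ratio within a library changed sign in the alternatives run. HIRA to UBN1, 0.03 on the log2 scale, came to 0.00 without the first control, the second control or the second Ras-induced library, so no direction is given for it. UBN1 to UBN2, from which nothing is read because UBN2 lay near the filter, was -1.02, and -0.48 with 1 FPKM added. With group means removed, libraries of the same number in the column names correlated across genes at -0.0027, 0.0433 and 0.0481. Those of different numbers correlated at -0.0679 to 0.0311. Such small values from 3 libraries per group cannot settle whether libraries of the same number came from the same repeat. With the replicate block 2310 genes were altered, and CHAF1B, ASF1A and ASF1B remained so (adjusted p = 0.0144, 0.0354 and 0.0468 from limma), and no member's call changed. Without read counts, the depth behind low values such as those of CHAF1B and UBN2 is not known from the table.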
